A study of Mus musculus with 6 samples.

Results

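Retinoid transport and metabolism was followed through 9 genes, Rbp4, Stra6, Retsat, Adh1, Aldh1a1, Aldh1a3, Crabp1, Crabp2 and Dhrs3. They were taken as every probe set whose only annotated gene symbol is one of these names, which gave 12 of the 22626 non-control probe sets and 9 of the 12393 genes with a single-gene probe set. The RNA came from white fat of mice 8 weeks old, on a mixed background of C57BL6 and 129, that had spent 4 days at 4 °C. The 3 control samples came from YY1flox/flox mice, and the 3 YY1aKO samples from YY1flox/flox mice that also carried Adiponectin Cre, which is driven by a promoter active in adipocytes. Both groups thus carried the floxed alleles and both were kept in the cold. Every sample was read on a 1-colour Affymetrix array. No label states that samples are separate animals, so errors and p-values below reflect the spread between samples only. The tissue field calls the fat visceral and the titles begin with EWAT, whereas the descriptions and the series title call it subcutaneous. That title also names brown fat as the site of the deficiency.

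Retinol leaves the liver bound to RBP4, enters cells with the help of the receptor STRA6, and is stored as retinyl ester. Alcohol and retinol dehydrogenases oxidise retinol to retinaldehyde, short-chain reductases such as DHRS3 return retinaldehyde to retinol, and retinaldehyde dehydrogenases of the ALDH1A family make retinoic acid. Cellular binding proteins then hold retinoic acid or hand it to nuclear receptors, and RETSAT diverts retinol to a saturated form. Fat stores retinol, secretes RBP4 and makes its own retinoic acid, and these steps are known to shape adipocyte differentiation and thermogenesis.

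Control 2 stood apart before any comparison was made. Its Pearson correlation with another array, taken across all probe sets, which are not independent replicates, was 0.928 to 0.955, against 0.970 to 0.996 among the other 5. The 5 measured of 11 listed epididymal genes summed to an intensity of 91291 in control 2, 148 in control 1, 834 in control 3 and 159 to 171 in YY1aKO. Among them Lcn5, a retinoic acid-binding lipocalin of the epididymis, read 17737 in control 2 and 17.7 to 50.1 on the other arrays. The 6 measured of 8 listed mature adipocyte genes, which include Adipoq and Fabp4, mark the labelled tissue. They summed to 62632 in control 2, 96851 and 93221 in controls 1 and 3 and 73821 to 79979 in YY1aKO. Retn, which is among them, read 19778 and 18733 in controls 1 and 3 and 3171, 8225 and 8440 in YY1aKO. It thus lowers the YY1aKO sums, and no gene of this list was called with all arrays. Because control 2 stood apart, differences below are also given without it, which leaves 2 control and 3 YY1aKO arrays. The targeted gene Yy1 fell, but not alike on all its probe sets. On the brightest the controls read 1785, 1846 and 1596 and YY1aKO 373, 323 and 315. The log2 difference there was -2.37 ± 0.11 SE. Dimmer probe sets of Yy1 differed by -1.21 ± 0.08 and -1.03 ± 0.14, with groups that did not overlap. The dimmest, at 38.5 to 43.1 on all arrays, differed by -0.06 ± 0.08 with overlapping groups. The depth of the loss thus depended on the probe set read.

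The 9 genes were chosen with the YY1aKO to control difference in view, so their differences are a description and test nothing. In the limma fit over all probe sets, with Benjamini-Hochberg adjustment and a threshold of 0.05, 6.54% of probe sets were higher and 3.66% lower in YY1aKO. Of the 12 member probe sets 1 was lower, that of Adh1, and none was higher. At an unadjusted limma p under 0.05, 2 were higher and 4 lower. The share of all probe sets at that unadjusted cutoff was not counted. Without control 2, 13.9% of all probe sets were higher and 10.6% lower at the adjusted threshold. Of the members' probe sets, 2 were higher there, those of Stra6 and the brighter one of Retsat, and 2 lower, those of Rbp4 and Adh1. All 3 YY1aKO readings lay above all 3 controls for 2 of the 12, against 22.2% of all probe sets, and below them for 4, against 14.8%. The median log2 difference of the 12 was -0.05 with all arrays and -0.34 without control 2, beside 0.05 and 0.02 over all probe sets. Lists of cell type markers were read in the same fits. Without control 2 the median difference was -0.27 for the mature adipocyte list (1 of 6 lower), -0.41 for endothelium (3 of 9 lower), -0.39 for progenitors and fibroblasts (3 of 9 lower), -0.63 for smooth muscle (3 of 5 lower), -0.63 for mesothelium (1 of 6 lower), -0.11 for macrophages and -0.05 for lymphocytes (no call in the last 2). With all arrays these medians were 0.10, 0.04, -0.20, -0.49, -0.56, 0.10 and 0.17. The brown and beige adipocyte list had 1.05 with all arrays and 0.91 without control 2. In both fits 3 of 7 were higher, Ucp1, Cidea and Cox7a1. Ppargc1a was the 1 lower (-2.93, and -3.12 without control 2), and Cox8b, Elovl3 and Dio2 passed in neither fit. The part of these values in the members' values was not tested. The call of Adh1 was lost without control 3, where 1.14% of probe sets passed, and without YY1aKO 1 (0.561%), YY1aKO 2 (0.0796%) or YY1aKO 3 (0.124%).

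**Figure D1:**
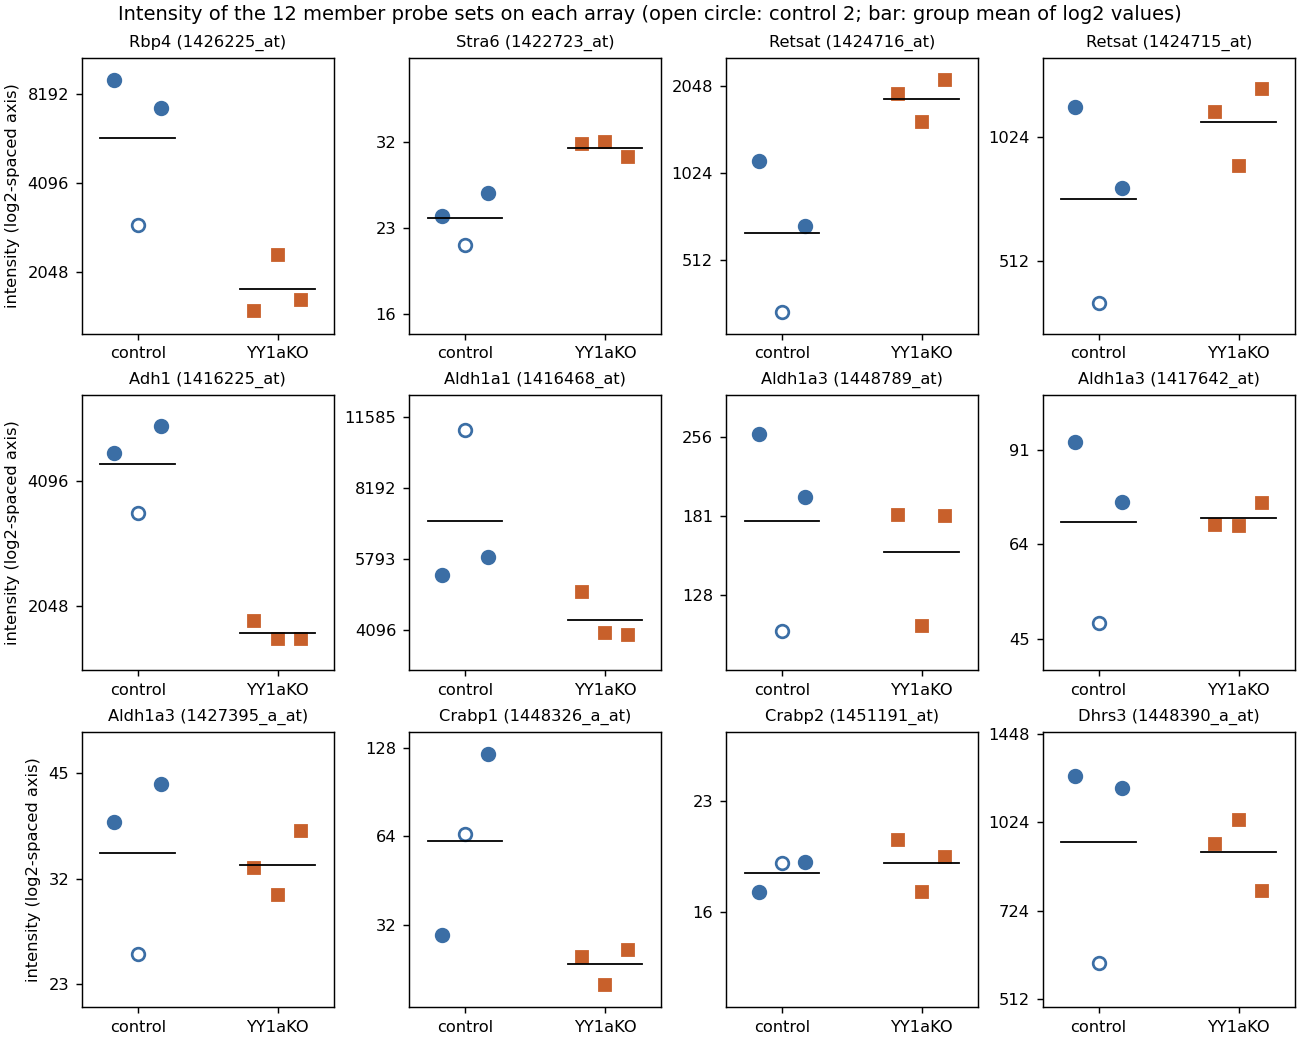
Intensity of each of the 12 member probe sets on the 6 arrays (vertical axis, intensity on log2 spacing; filled circles, controls 1 and 3; open circle, control 2; squares, YY1aKO; bars, group means of the log2 values). Control 2 is the lowest of all 6 arrays for 7 probe sets and the highest for 1, that of Aldh1a1.

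The 250 bases before the gene start are shown for Rbp4 (its outer start), Adh1 and Retsat. These are the members with the largest called differences without control 2. The stretches shown are part of those searched for motifs. They come from RefSeq on GRCm38.p6, run 5′ to 3′ along the gene's strand, and the capitals mark a TATA box, TATAAA.
Rbp4, chr19:38125322-38125571, minus strand: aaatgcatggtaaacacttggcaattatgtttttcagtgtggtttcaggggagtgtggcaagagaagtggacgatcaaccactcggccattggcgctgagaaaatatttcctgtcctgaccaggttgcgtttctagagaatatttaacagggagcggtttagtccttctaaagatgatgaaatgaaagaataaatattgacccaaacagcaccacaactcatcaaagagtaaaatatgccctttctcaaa
Adh1, chr3:138277335-138277584, plus strand: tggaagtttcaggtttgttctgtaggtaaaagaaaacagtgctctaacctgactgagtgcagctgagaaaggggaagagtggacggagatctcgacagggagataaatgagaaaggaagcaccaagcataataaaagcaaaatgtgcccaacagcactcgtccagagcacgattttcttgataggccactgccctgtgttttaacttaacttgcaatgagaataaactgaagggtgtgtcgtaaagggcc
Retsat, chr6:72598352-72598601, plus strand: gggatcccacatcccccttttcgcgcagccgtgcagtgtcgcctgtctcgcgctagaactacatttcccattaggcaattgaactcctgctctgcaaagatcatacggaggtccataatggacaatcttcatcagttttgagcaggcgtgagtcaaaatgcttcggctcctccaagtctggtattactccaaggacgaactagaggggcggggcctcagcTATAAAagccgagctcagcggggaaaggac
Of the 9 members, 7 had promoter windows in that table, 14 windows of 300 bases in all, each from 250 bases before to 50 after a start. The YY1 core letters CCATNTT were in none of the 14 on either strand and in 16.1% of the 32851 windows of all genes. Nuclear receptor half-sites, AGGTCA on either strand, were also in none of the 14 and in 16.3% of all windows. TATAAA on the printed strand was in 2 of the 14 and in 8.32% of all windows. It lay 30 bases before the start of Retsat and 28 bases before the inner of the 2 annotated starts of Rbp4. The window of that inner start is not printed here. Only these exact letters were searched.

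Rbp4, the plasma carrier of retinol and a secreted product of fat, lies on chromosome 19 (38116620 to 38125321, GRCm38.p6). Its readings were 9125, 2946 and 7343 in the controls, in the order 1, 2 and 3 used throughout, and 1501, 2340 and 1645 in YY1aKO. All 3 YY1aKO readings were below all 3 controls, and control 2 was the lowest control. The log2 difference was -1.70 ± 0.44 (SE, n = 3 per group), or 3.25-fold lower, and it did not pass the threshold over all probe sets. Among genes in the brighter 60%, each taken by its brightest probe set, the same difference passed (20.7% of those genes did). Without control 2 it was -2.19 ± 0.21, or 4.56-fold lower, and passed. In the 5 fits that left out control 2 and 1 further array it was -2.38 to -2.03. It passed in those of them that left out a YY1aKO array, where 14.0% to 16.7% of all probe sets passed.

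Stra6, the cell-surface receptor for RBP4, read low on every array. Its readings were 23.7, 21.2 and 26.0 in the controls and 31.8, 31.98 and 30.1 in YY1aKO. The groups did not overlap, but they lay only 0.41 ± 0.10 log2 units apart (1.33-fold), and 0.33 ± 0.09 apart without control 2, where it passed. With 1 further array left out it passed in limma in none of 5 fits (0.27 to 0.40). The probe set lies outside the brighter 60%, and without detection calls the share of background in such readings is not known here. With 32 added to each intensity before the log2, which damps dim signals, the difference was 0.19.

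Adh1, an alcohol dehydrogenase that oxidises retinol, lies on chromosome 3 (138277585 to 138290698). It fell in YY1aKO, where it read 1886, 1703 and 1703 after 4772, 3423 and 5538 in the controls. Each YY1aKO reading was well under the lowest control, and the 3 lay close together (SD 0.08 log2 units, against 0.36 in controls). The log2 difference was -1.35 ± 0.19 (SE, n = 3 per group), or 2.55-fold lower, and -1.54 ± 0.10 without control 2. It was -1.20 without control 3 and -1.40 to -1.32 with 1 YY1aKO array left out. In the 5 fits without control 2 and 1 further array it was -1.65 to -1.44. It passed in those of them that left out a YY1aKO array, where 14.0% to 16.7% of all probe sets passed.

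Dhrs3, the reductase that returns retinaldehyde to retinol, read 1231, 590 and 1172 in the controls and 941, 1035 and 782 in YY1aKO. The YY1aKO readings lay between control 2 and the other 2 controls, so the groups overlapped. The difference was -0.05 ± 0.31, and -0.39 ± 0.13 without control 2, and passed in neither fit.

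Retsat, the enzyme that saturates retinol to dihydroretinol, lies on chromosome 6 (72598602 to 72607488) and had 2 probe sets that did not move alike. The brighter, 1424716_at, read 1126, 338 and 671 in the controls and 1922, 1531 and 2152 in YY1aKO. There the groups did not overlap, with a log2 difference of 1.54 ± 0.43 (2.92-fold) with all arrays and 1.09 ± 0.25 (2.13-fold) without control 2, where it passed. With 1 further array left out it passed in 2 of 5 fits (0.72 to 1.46). The other, 1424715_at, read 1217, 404 and 772 in the controls and 1184, 870 and 1346 in YY1aKO. Its groups overlapped, with 0.62 ± 0.41 and 0.20 ± 0.25, and it passed in neither fit.

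Taken on the same array, the log2 ratio of 1424716_at to 1424715_at was -0.11, -0.26 and -0.20 in the controls and 0.70, 0.82 and 0.68 in YY1aKO. Both groups were tight (SD 0.07 each, n = 3), control 2 was the lowest control, and the shift was 0.92 log2 units, a 1.89-fold change of the ratio, or 0.89 without control 2. This ratio was chosen after its values were seen. Among 5464 pairs of probe sets of 1 gene in the brighter 60%, from 2533 genes, 1.46% shifted at least as far with groups that did not overlap. The annotation gives the same source accession for both probe sets and does not place them on transcripts. Which transcript forms each one reads is therefore not known here.

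**Figure D2:**
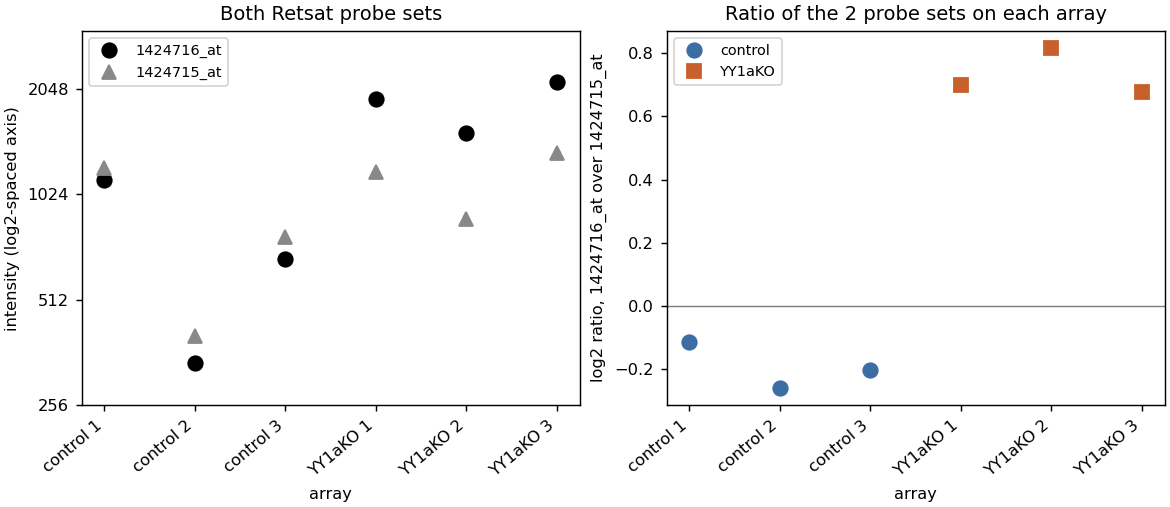
Left, intensity of both Retsat probe sets on each array (log2 spacing). Right, their log2 ratio on each array, from -0.26 to -0.11 in controls and from 0.68 to 0.82 in YY1aKO, with control 2 at the lower end of its group.

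Aldh1a1, the retinaldehyde dehydrogenase best known in fat, lies on chromosome 19 (20492583 to 20643463). Its readings were 5375, 10873 and 5862 in the controls and 4935, 4038 and 4009 in YY1aKO. The groups did not overlap, and control 2 was 1.94 times the geometric mean of the other controls, on the array where the epididymal genes summed to 91291. The part of these genes in that reading was not tested. The difference was -0.70 ± 0.28 with all arrays and -0.38 ± 0.12 without control 2, and passed in neither.

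Aldh1a3, a second enzyme of retinoic acid synthesis, had 3 probe sets. The brightest, 1448789_at, read 258, 110 and 196 in the controls and 182, 112 and 181 in YY1aKO, with overlapping groups and a difference of -0.20 ± 0.36. The other 2, 1417642_at (48.0 to 93.0 in the controls and 68.5 to 74.5 in YY1aKO) and 1427395_a_at (25.0 to 43.6 and 30.4 to 37.4), overlapped as well, at 0.02 ± 0.24 and -0.05 ± 0.22. Control 2 was the lowest array for all 3, and without it the differences were -0.55 ± 0.25, -0.24 ± 0.12 and -0.29 ± 0.12, none past the threshold.

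Crabp1, a cytosolic protein that binds retinoic acid and is linked to its breakdown, read 29.4, 64.8 and 122 in the controls and 24.9, 20.0 and 26.3 in YY1aKO. The controls spanned 4.15-fold, with control 3 at the top, and control 1 lay close to YY1aKO. The difference was -1.39 ± 0.50, or -1.35 ± 0.55 without control 2, and passed in neither. It turned on which controls were used. Without control 3 it was -0.89, and without controls 2 and 3 it was -0.32. Without control 1 it was -1.92, and without controls 1 and 2 it was -2.37, and it passed in both. Control 3 also carried more of some epithelial genes than control 1, with Krt8, a keratin of simple epithelia, at 1860 against 496, and Gpx5, an epididymal peroxidase, at 639 against 39.0. Of the mesothelial and epididymal lists that hold them, Lcn8 (49.2 against 50.6), Msln (521 against 693) and Upk3b (3012 against 3055) were not higher in control 3. Control 2 read 4265 for Krt8 and 21047 for Gpx5, with Crabp1 at 64.8. The part of these genes in the Crabp1 readings was not tested.

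Crabp2, which delivers retinoic acid to its receptors, read 17.02, 18.6 and 18.7 in the controls and 20.04, 17.02 and 18.97 in YY1aKO. All 6 readings were low and the groups overlapped, with a difference of 0.04 ± 0.10, or 0.06 ± 0.11 without control 2. A change at this brightness could not be seen well on these arrays.

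**Figure D3:**
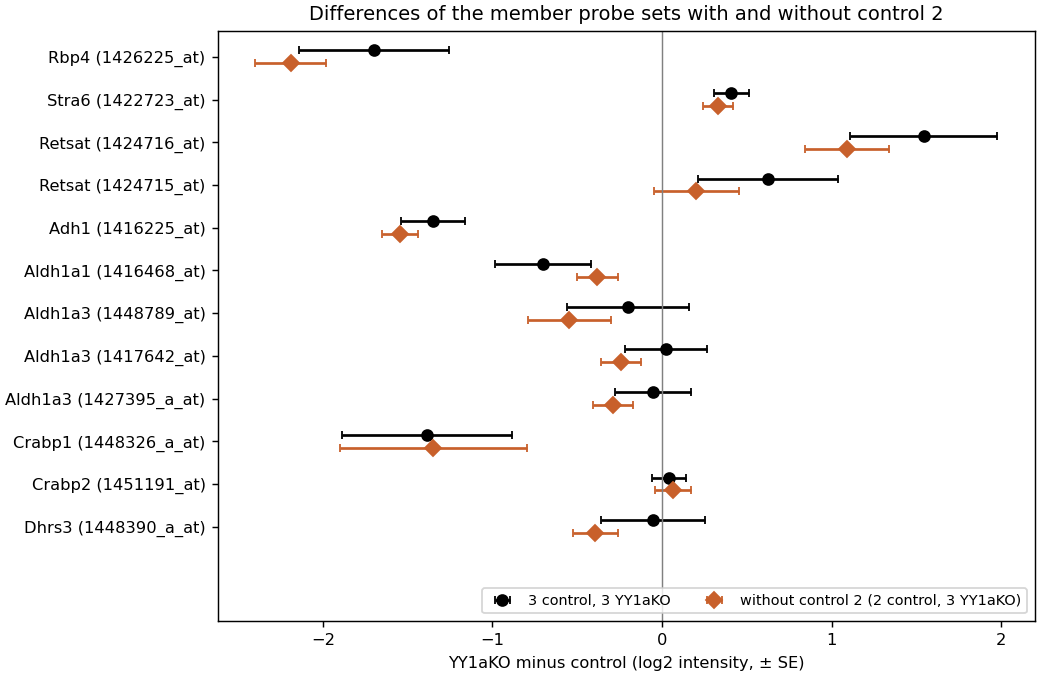
YY1aKO minus control on the log2 scale for each member probe set (points, differences; bars, SE), with all 6 arrays (circles) and without control 2 (diamonds). Rbp4 and Adh1 move further below 0 without control 2, to -2.19 and -1.54, while the brighter Retsat probe set goes from 1.54 to 1.09.

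The controls were more spread than the YY1aKO samples. The SD of the log2 values was larger in controls than in YY1aKO for 11 of the 12 probe sets, as for 75.9% of all probe sets. It reached 1.03 in the controls, for Crabp1, where control 3 was highest and control 1 lowest, and 0.40 in YY1aKO. Control 2 was the lowest of the 3 controls for 9 of the 12, against 48.7% of all probe sets. Its log2 difference from the mean of controls 1 and 3 was -1.47 for Rbp4, -1.36 for Retsat, -1.04 for Aldh1a3, -1.03 for Dhrs3 and -0.59 for Adh1. By its median, the mature adipocyte list differed there by -1.05, the endothelial list by -1.51 and the macrophage list by -0.94. Other lists differed less, lymphocytes by -0.58, progenitors and fibroblasts by -0.50, brown and beige adipocytes by -0.43 and mesothelium by -0.06. Smooth muscle differed by 0.15 and epididymis by 9.14. In bulk tissue, fewer cells of a type and less RNA per cell cannot be told apart. Leaving out control 2 thus brought the negative differences of Rbp4 and Adh1 further from 0 and the positive one of Retsat closer to it.

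**Figure D4:**
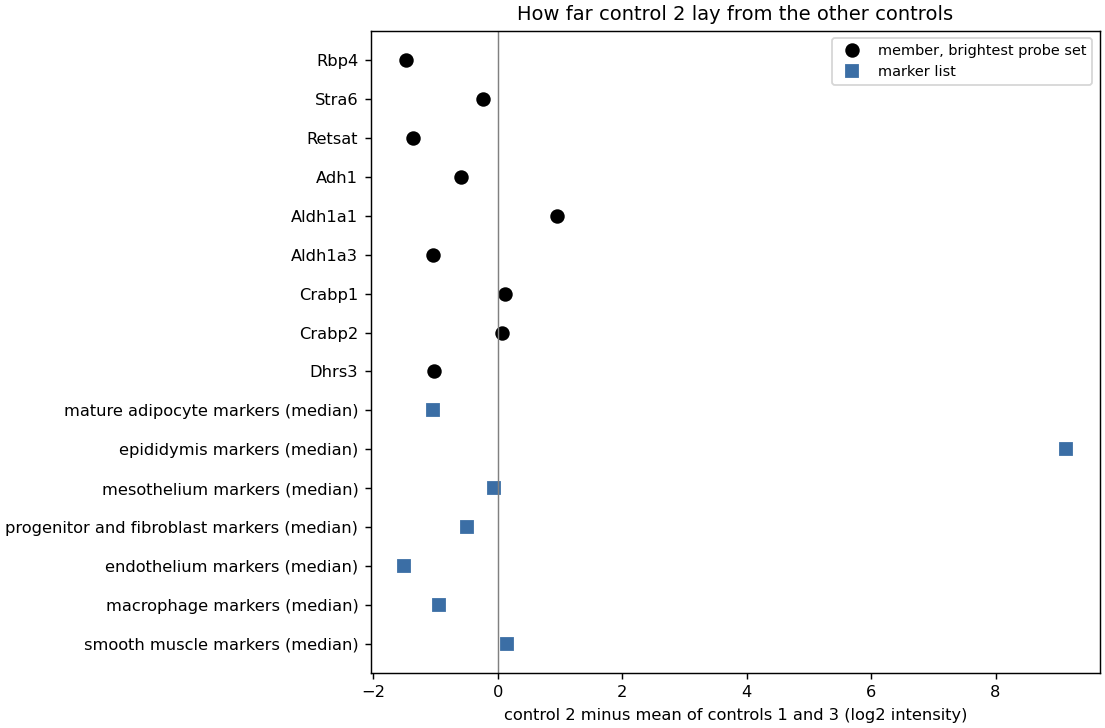
Control 2 minus the mean of controls 1 and 3 on the log2 scale for the 9 members (circles, brightest probe set) and as medians of 7 marker lists (squares). Most members and most marker lists lie on the negative side, with the endothelial list furthest left at -1.51. Aldh1a1 lies at 0.95 and the epididymal list at 9.14.

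The other genes of the pathway were read from a list of 61 chosen by role, of which 53 were measured. Each gene stands by its brightest probe set in the same fit, where 6.92% of all genes were higher and 4.04% lower in YY1aKO. Of the 53, 4 were higher and 6 lower with all arrays, with a median difference of 0.01 beside 0.04 over all genes. Without control 2, 6 were higher and 13 lower, beside 14.5% and 11.5% of all genes, with a median of -0.04 beside 0.01. With 1 other array left out these counts fell to 2 or fewer in all except the fit without control 1, which had 5 higher and 4 lower.

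Among carriers and uptake proteins 1 of 7 was lower and 6 did not pass. The largest difference of these 6 was that of Lrp2, which read 133, 267 and 824 in the controls and 117, 68.7 and 45.7 in YY1aKO. Its groups did not overlap, but the controls were widely spread. The difference was -2.10 ± 0.71, or -2.21 without control 2, and passed in neither fit. Scarb1, the lipoprotein receptor that takes up carotenoids, fell from 802, 717 and 698 to 321, 460 and 477, a log2 difference of -0.84 ± 0.17 (limma adjusted p = 0.037) and -0.86 without control 2. Rbp7, a cellular retinol-binding protein of fat and its capillaries, read 1397, 287 and 576 in the controls and 441, 677 and 735 in YY1aKO, with overlapping groups and -0.03 ± 0.58. Without control 2, its lowest reading, the difference was -0.57 ± 0.40 (1.49-fold lower), and it passed in neither fit.

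In ester storage and release 1 of 5 was lower and 4 did not pass. Ces1d, a carboxylesterase that splits neutral lipid esters, fell from 11263, 5367 and 10190 to 2340, 1254 and 2711, a difference of -2.09 ± 0.40 (limma adjusted p = 0.030) and -2.42 without control 2. Lrat, the main retinol-esterifying enzyme in other tissues, read 9.68 to 18.0 on all arrays, with -0.31 ± 0.23 and -0.10 ± 0.17 without control 2. Dgat1 differed by 1.06 ± 0.40 (0.63 without control 2) and Lipe by 0.91 ± 0.45 (0.39). Pnpla2 differed by 0.22 ± 0.32 (-0.15), and none of these passed in either fit.

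The enzymes that interconvert retinol, retinaldehyde and carotenoids moved both ways, with 3 of 15 higher, 2 lower and 10 not past the threshold. Dhrs4, which reduces retinaldehyde, rose from 1222, 827 and 1159 to 1975, 1925 and 2618 (1.03 ± 0.20, limma adjusted p = 0.031; without control 2, 0.85). Rdh5, a retinol dehydrogenase of the visual cycle, rose from 104, 57.4 and 101 to 198, 191 and 200.2 (1.22 ± 0.24, limma adjusted p = 0.033; without control 2, 0.94). Rdh14, named to complete the count, rose by 0.67 ± 0.15, or by 0.54 without control 2. Adh5, the glutathione-dependent formaldehyde dehydrogenase of the alcohol dehydrogenase family, fell from 4059, 4403 and 4115 to 2550, 2708 and 2625 (-0.67 ± 0.08, limma adjusted p = 0.012; without control 2, -0.64). Unlike its relative Adh1, it had a control 2 reading close to the other controls. Bco2, the mitochondrial enzyme that cleaves carotenoids, fell from 161, 87.6 and 131 to 59.8, 53.5 and 53.5 (-1.15 ± 0.23, limma adjusted p = 0.034; without control 2, -1.39).

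The list for synthesis and breakdown of retinoic acid had 1 of 6 lower, Aldh1a7, whose own part in that synthesis was not measured. Aldh1a7, a close relative of Aldh1a1, fell from 3947, 6153 and 3060 to 365, 524 and 491, a log2 difference of -3.21 ± 0.28 (limma adjusted p = 0.0081) and -2.93 without control 2. As the sequences of such relatives are alike, probes of one may also bind transcripts of the other, and Aldh1a1 differed by -0.38 without control 2. Both read highest in control 2. Aox1, an aldehyde oxidase that also makes retinoic acid, read 2467, 677 and 1820 in the controls and 804, 880 and 978 in YY1aKO. Its difference was -0.71 ± 0.47 with all arrays, where it did not pass, and -1.26 without control 2 (limma adjusted p = 0.0042), and it was named after its values were seen. Aldh1a2 (-0.10 ± 0.21, and -0.30 without control 2) and the retinoic acid hydroxylase Cyp26a1 (-0.07 ± 0.13 and -0.04) passed in neither fit.

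In delivery and receptors 1 of 8 was higher. Fabp5, a fatty acid-binding protein that can carry retinoic acid to PPAR delta, rose from 10032, 3957 and 7073 to 18718, 19153 and 19248 (1.54 ± 0.33, limma adjusted p = 0.040; without control 2, 1.18). Its YY1aKO readings lie near the top of the intensity scale, where a scanner can compress differences. None of the 7 receptor genes passed with all arrays (no call in limma, and none at an unadjusted p under 0.05). Without control 2 the receptor genes Rarb (-0.55) and Rxra (-0.49) were lower, with limma adjusted p of 0.043 and 0.038. In that fit 11.5% of all genes were lower. With all arrays the groups overlapped for both genes. With 1 YY1aKO array also left out, Rarb did not pass in any fit, and Rxra passed only without YY1aKO 2.

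Of 12 measured retinoic acid-induced genes, 1 was lower and 11 did not pass. Nrip1, a corepressor of nuclear receptors, fell from 2148, 2055 and 2440 to 1150, 979 and 985 (-1.09 ± 0.11, limma adjusted p = 0.00996; without control 2, -1.15). Rarres2, which encodes chemerin, read 8306, 3009 and 7762 in the controls and 13130, 13291 and 12488 in YY1aKO (1.16 ± 0.39). It did not pass with all arrays and did without control 2 (0.69, limma adjusted p = 0.0041). Leaving out control 2 gave this list 2 higher and 4 lower members and a median difference of -0.04. Further probe sets of the called genes went the same way for Scarb1, Ces1d, Dhrs4, Fabp5 and Nrip1, but not all passed with all arrays. Those of Fabp5 and Nrip1 did (limma adjusted p of 0.039 and 0.010). For Scarb1 the one at -0.85 passed and the one at -0.71 did not (0.037 and 0.077). Those of Ces1d (0.055 and 0.056) and that of Dhrs4 (0.094) did not pass. Without control 2 those of Ces1d and Dhrs4 passed. The dimmer one of Rdh14 differed by -0.13 ± 0.14 and did not pass. Aldh1a7 and Nrip1 passed in 4 of the 6 fits with 1 array left out, and each of the other 8 called genes in 1 or 2 of them.

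**Figure D5:**
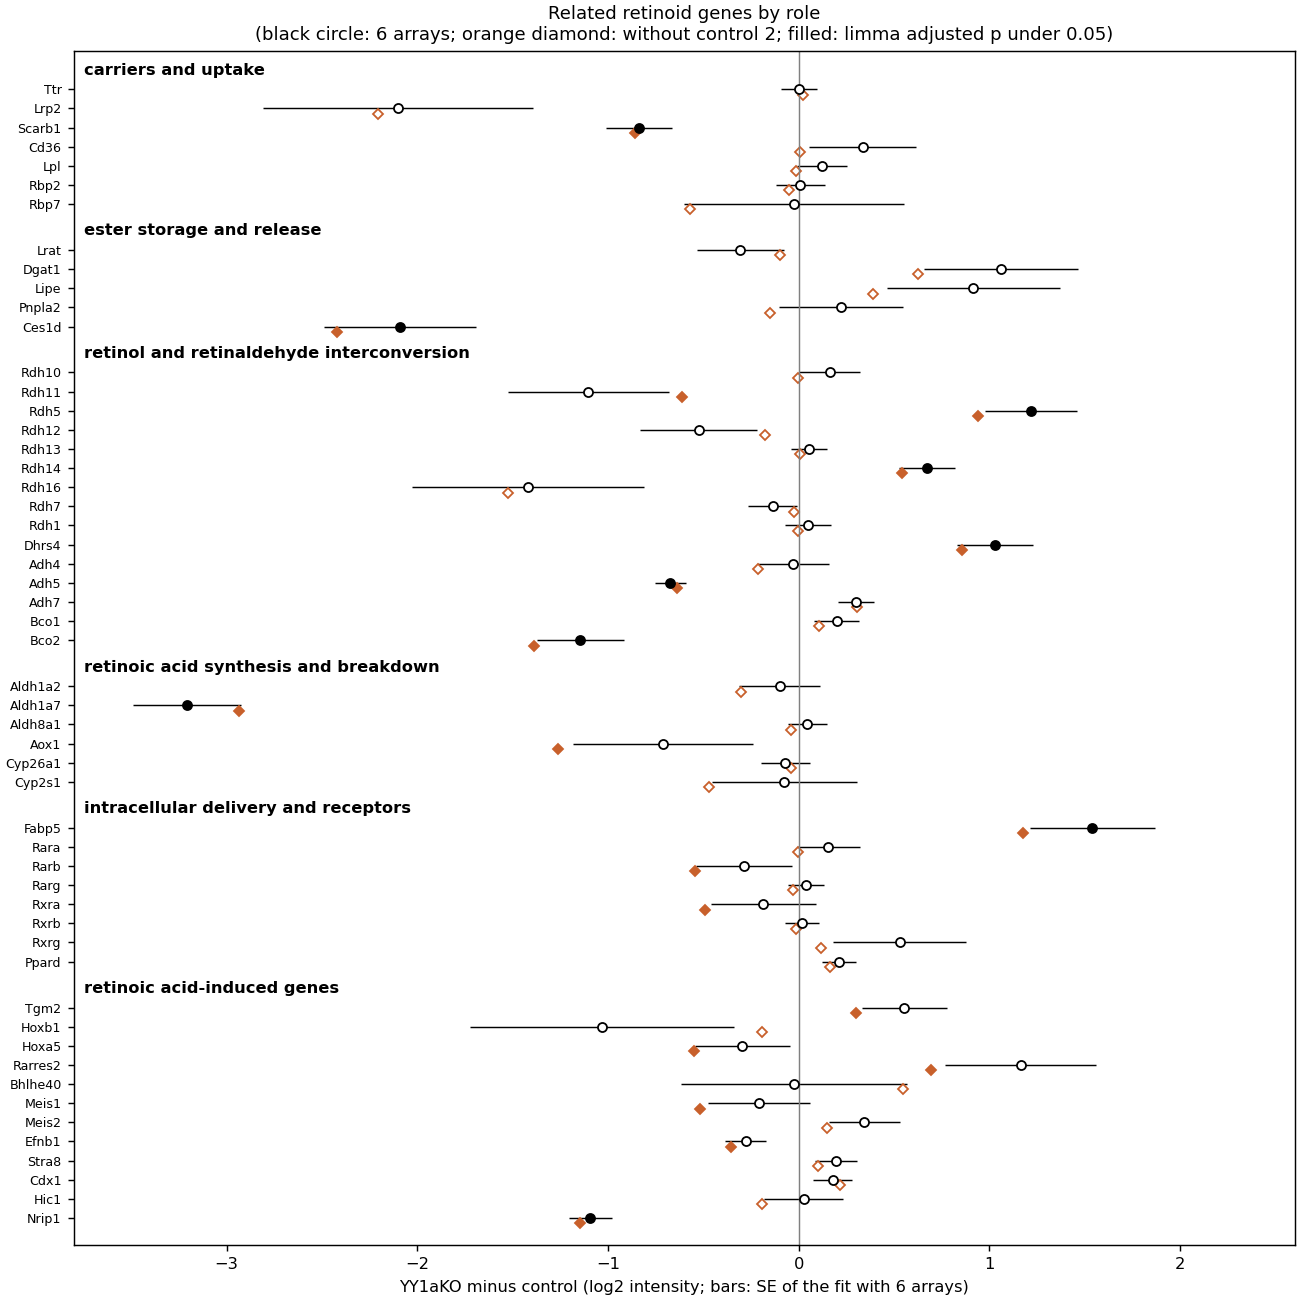
YY1aKO minus control on the log2 scale for the 53 measured related genes, grouped by role (circles, 6 arrays with SE bars; diamonds, without control 2; filled symbols, limma adjusted p under 0.05). Aldh1a7 lies furthest to the left at -3.21 and Fabp5 furthest to the right at 1.54.

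The array patterns most like those of 2 members were found by the root-mean-square distance of the 6 log2 values, each centred on its own mean, among 7435 genes of the brighter 60%. For Retsat, the member with the highest difference, these were N4bp2l1 (distance 0.14 log2 units), Tmem140 (0.15) and Irx3 (0.16). N4bp2l1 read 929, 305 and 620 in the controls and 1580, 1125 and 1525 in YY1aKO. For Rbp4, the member with the lowest, they were Papss2 (0.21), Opn3 (0.21) and Phyh (0.23), and Papss2 read 2065, 537 and 1696 in the controls and 312, 355 and 344 in YY1aKO. For all 6 of these genes control 2 was the lowest control, as for both members, so that array weighs on the likeness.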

How the data were processed

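The authors deposited intensities that the submitters' processing notes credit to RMA, without version or settings. They are linear, from 6.09 to 30322, although RMA usually gives log2 values, and the conversion is not given in the sources used here. RMA makes arrays alike in distribution, which removes a change shared by most genes. Of 22690 probe sets 64 array controls were left out. The platform annotation named 1 gene for 20380 of the rest, several for 691 and none for 1555. A gene's brightest probe set has the highest mean over the 6 arrays, and the brighter 60% of genes had a mean intensity of at least 114.

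Log2 intensities of all 22626 probe sets were tested with limma 3.58.1 in R 4.3.3 (lmFit and eBayes, Benjamini-Hochberg, two-sided), with no brightness filter. The code was tested on simulated data. The members and lists were chosen with earlier results of these data known. Of the related genes, up to 4 called ones per role were named by smallest adjusted p. Some that were not called, such as Rbp7 and Lrp2, were named outside that rule. Fitting control 2 with 1 further array left out was chosen after seeing the data.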

Additional observations from a re-analysis of the deposited data

How the results depend on the processing

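The members' directions held in every setting run for Rbp4, Adh1, Aldh1a1, Crabp1, Stra6 and the brighter Retsat probe set. Counts of calls depended on the arrays used, on array weights and on the replicate block. With 1 array left out, alone or with control 2, the count of probe sets ran from 18 to 5532 (2306 with all), that of members from 0 to 2 higher and 0 to 3 lower, and that of related genes from 0 to 7 higher and 0 to 13 lower. The count of 18 was without YY1aKO 2 and that of 5532 without control 2. Without YY1aKO 2, limma called 0 members and 0 related genes. At an unadjusted limma p under 0.05, 2 members and 5 related genes were higher and 2 and 6 lower there. How many of all probe sets passed that unadjusted cutoff was not counted, so these counts have no share beside them. Fits that leave 1 control assume that it varies like the other group.

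Over the same fits the sign of small differences turned. These ran from -0.13 to 0.997 for Retsat 1424715_at, from -0.74 to 0.072, -0.40 to 0.24 and -0.38 to 0.11 for Aldh1a3 1448789_at, 1417642_at and 1427395_a_at, from -0.011 to 0.13 for Crabp2 and from -0.48 to 0.14 for Dhrs3.

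Array weights gave 9395 probe sets, 2 members higher and 5 lower, 10 related genes higher and 15 lower, Aox1, Rarb, Rxra and Rarres2 among them, and turned Aldh1a3 1417642_at to -0.10, although their estimation stopped before it converged. The mean of a gene's probe sets gave 1359 genes, with 2 related genes higher. Limiting the fit to the brighter 60%, of genes or of probe sets, gave 2 members lower, Rbp4 and Adh1. A repeated quantile normalization gave 1 member higher, Stra6. With a threshold of 0.01, 170 probe sets remained past it, with 0 members and 0 related genes higher, 0 members lower and 2 related genes lower. The cause of these differences was not tested.

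With the replicate number as a block 16 probe sets passed, with 0 members, and 0 related genes higher and 0 lower in limma. At an unadjusted limma p under 0.05, 2 members were higher and 3 lower, and 6 related genes higher and 7 lower. The share of all probe sets at that unadjusted cutoff was not counted here either. The deviations of same-numbered samples from their group means correlated at -0.10, -0.08 and -0.10, so no likeness by number was seen. As the deviations within a group sum to 0, these values cannot settle whether such samples were handled together. In the labels they share only a number. With 6 arrays precision is limited throughout, and dim probe sets such as those of Stra6, Crabp1 and Crabp2 can hide a change.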
